A study of Mus musculus with 8 samples.

Results

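The hair matrix transcription factors are 10 genes that regulate gene activity in the growing hair follicle, and they were followed here across the 8 arrays of a study of skin from CD109-/- and CD109+/+ mice. The members were Hoxc13, Foxn1, Foxe1, Msx1, Msx2, Dlx1, Dlx2, Dlx3, Dlx4 and Gata3, chosen by name, and every probe whose RefSeq accession belonged to one of them was taken. They made up 10 of the 21150 genes named on the array and 10 of its 55681 probes, with exactly 1 probe for each gene. The RNA came from whole skin of female FVB/N mice, either wild type or without CD109, a cell surface glycoprotein encoded by Cd109. The knockout line had been backcrossed onto FVB/N, the wild-type mice were purchased, and the age of the mice is not given for the arrays in the sources used here. The 4 groups, each with 2 arrays, were CD109-/- skin treated with DMBA, CD109+/+ skin treated with DMBA, untreated CD109-/- skin and untreated CD109+/+ skin, and the labels name acetone, the solvent of DMBA, for the untreated groups. DMBA is a polycyclic aromatic hydrocarbon that damages DNA, and RNA was taken 24 h after it.

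The hair matrix is the mass of dividing cells at the base of a growing follicle, from which the hair shaft and the inner root sheath are built. In a growth phase these cells express homeobox factors of the Msx, Dlx and Hox families, forkhead factors and a GATA factor, and in a resting phase the matrix is not present. Hoxc13 and Foxn1 are known in mice for the hair defects that follow their loss, and both act on the genes of the hair keratins.

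Before the members were compared, the targeted gene was read on every array. Cd109 had log2 signals of -7.85 and -7.51 on the CD109-/- DMBA arrays, against 1.09 and 1.68 on the CD109+/+ DMBA arrays. A log2 signal is the log2 of the deposited intensity minus the log2 of that array's 75th percentile, so that 0 is the level of the 75th percentile. In DMBA-treated skin the CD109-/- arrays read at least 271-fold lower for Cd109, a bound set by the lowest signal well above background, because its probe was not well above background on either CD109-/- array. In untreated skin the same probe read 1.90 and -7.90 on the arrays labelled CD109-/-, against 2.29 and -6.27 on the arrays labelled CD109+/+. The array labelled CD109-/- untreated replicate 1 thus had a high Cd109 signal and the array labelled CD109+/+ untreated replicate 2 a low one, each against its label. Whether the probe falls inside the deleted stretch of the gene was not established from the sources used here. The groups are used as labelled, and the members' results that rest on these 2 arrays are given with and without them.

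The 8 arrays lay on 1 slide, DMBA in 1 row and untreated in the second, and an effect of the treatment cannot be told apart from one of the slide row. Between 63.6% and 67.0% of spots were well above background on each array. The labels do not say that the 2 arrays of a group came from separate mice, and the p-values therefore measure only the spread between these arrays, which may be technical. In whole skin, fewer cells of a type and less RNA per cell cannot be told apart.

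All 10 members had higher signals on both CD109-/- DMBA arrays than on either CD109+/+ DMBA array, with log2 fold changes between 1.31 for Dlx3 and 5.85 for Dlx2. The same order, CD109-/- arrays all above CD109+/+ arrays, was found for 38.3% of the 36930 probes tested. With the labels as deposited, 0 of the 10 members passed the test (limma, Benjamini-Hochberg adjusted p between 0.132 and 0.306), and 3 had an unadjusted p under 0.05. In this comparison 34 of the 36930 probes passed, 0.0921%, and 9642 had an unadjusted p under 0.05. The median log2 fold change was 4.12 over the members and 0.06 over all probes tested. With normexp background correction, which adds an offset of 50 to each intensity, these medians were 2.12 and 0.19, and 0 members passed. All 4 groups share 1 estimate of the spread in this fit, and each untreated group held 1 array with high and 1 with low signals of these genes.

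**Figure D1:**
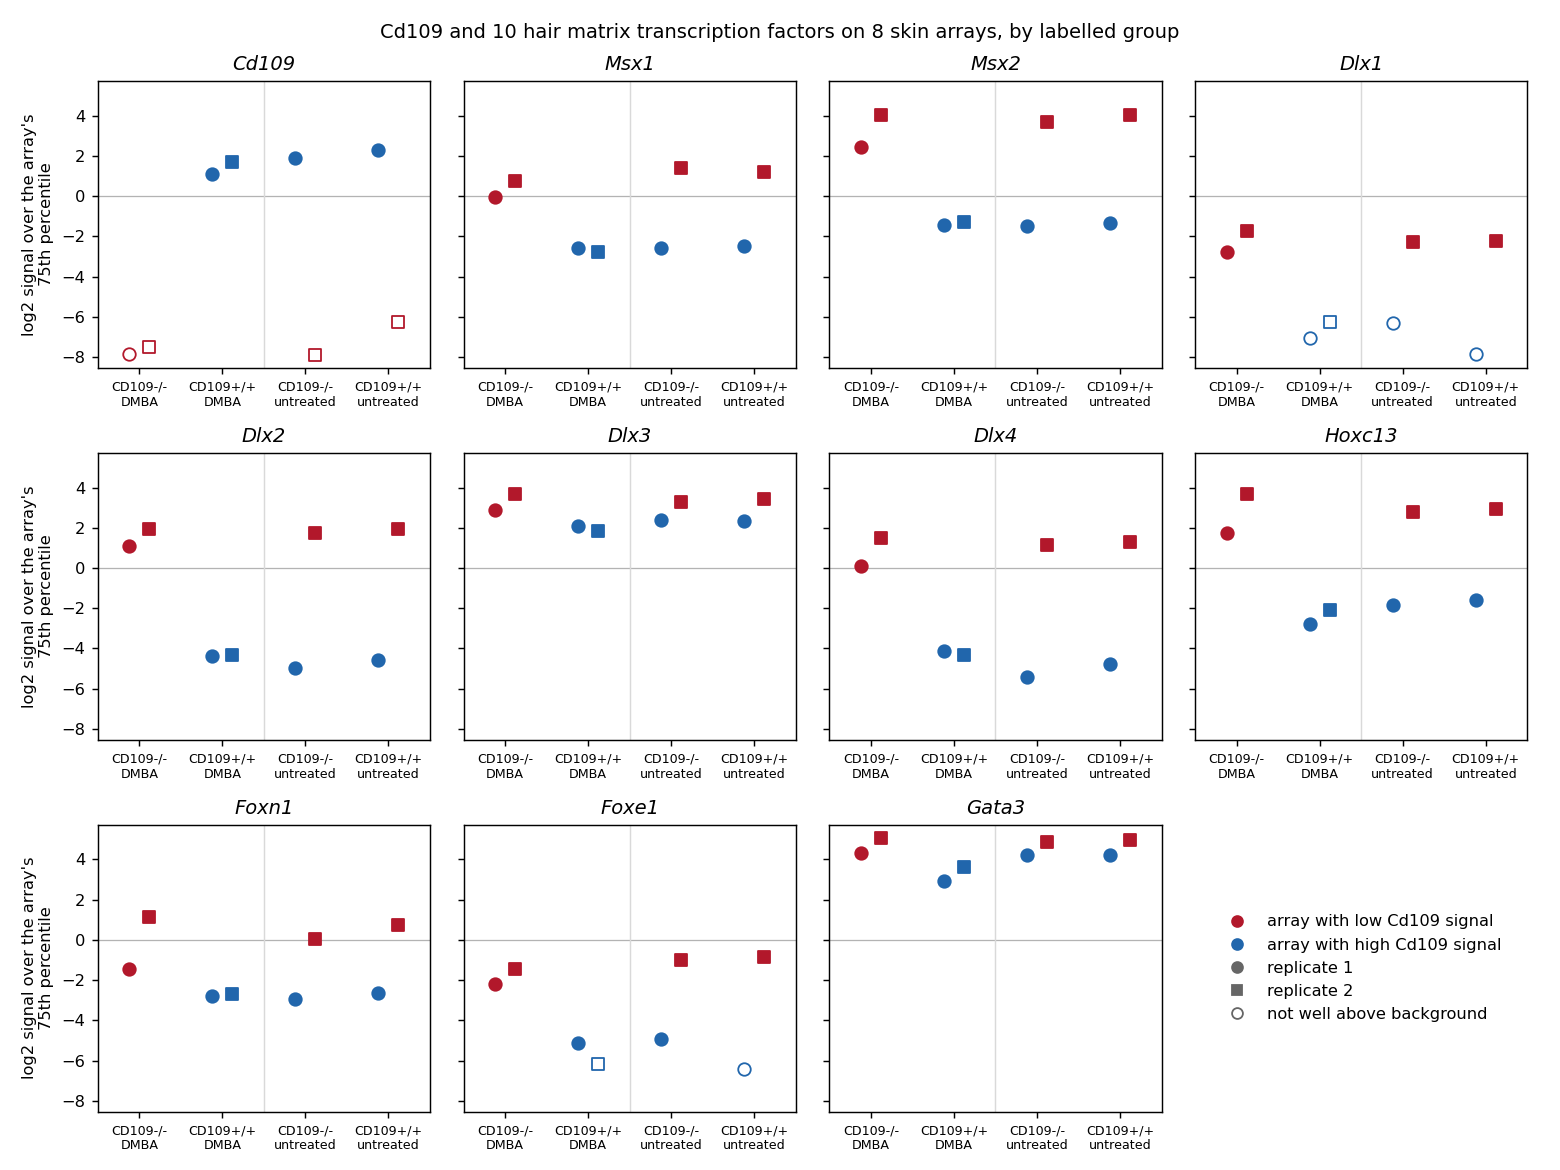
Log2 signal over the array's 75th percentile for Cd109 and each member, with the labelled groups along the x axis, circles for replicate 1, squares for replicate 2, red for arrays on which Cd109 was low, blue for those on which it was high and open symbols where the probe was not well above background. In each member the 4 red points lie above the 4 blue ones, and each untreated group holds 1 of each colour.

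RefSeq promoter sequences of the GRCm38.p6 build were matched for 6 of the 10 members, Msx1, Msx2, Dlx1, Dlx2, Foxn1 and Gata3. The 250 bases before the annotated start are shown for 4 of them, because these 4 hold a motif marked here. Dlx1 and Gata3 hold neither marked motif, and the signals of all 6 differed in the same direction after DMBA. Capitals mark 2 motifs, TAATTA, the core bound by many homeodomain factors, and CCAAT, which reads as ATTGG where it lies on the opposite strand. In Foxn1 the motifs overlap by 1 base.
Msx2 (chr13:53472781-53473030, minus strand): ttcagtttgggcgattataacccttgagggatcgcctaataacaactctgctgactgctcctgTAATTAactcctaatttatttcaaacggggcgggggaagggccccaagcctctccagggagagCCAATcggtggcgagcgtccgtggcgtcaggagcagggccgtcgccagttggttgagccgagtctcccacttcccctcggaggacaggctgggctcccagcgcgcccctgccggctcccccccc
Foxn1 (chr11:78386609-78386858, minus strand): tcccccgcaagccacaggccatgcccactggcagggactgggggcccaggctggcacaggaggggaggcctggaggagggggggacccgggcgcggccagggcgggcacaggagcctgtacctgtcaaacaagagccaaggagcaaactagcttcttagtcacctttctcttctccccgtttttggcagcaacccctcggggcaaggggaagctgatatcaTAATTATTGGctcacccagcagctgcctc
Msx1 (chr5:37824586-37824835, minus strand): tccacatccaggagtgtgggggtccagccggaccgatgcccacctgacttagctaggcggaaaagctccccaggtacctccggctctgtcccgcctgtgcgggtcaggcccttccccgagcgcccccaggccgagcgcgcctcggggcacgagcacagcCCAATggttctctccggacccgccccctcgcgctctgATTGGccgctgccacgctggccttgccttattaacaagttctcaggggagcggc
Dlx2 (chr2:71546755-71547004, minus strand): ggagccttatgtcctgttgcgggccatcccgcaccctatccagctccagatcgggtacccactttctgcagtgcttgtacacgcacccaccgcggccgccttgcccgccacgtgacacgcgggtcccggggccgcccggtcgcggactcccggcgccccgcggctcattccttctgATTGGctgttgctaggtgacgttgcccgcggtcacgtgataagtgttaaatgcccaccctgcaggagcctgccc
TAATTA was found in 2 of the 6 promoters, Msx2 and Foxn1, and in 4.84% of the 32851 promoters in the table. CCAAT was found in 4 of the 6, and in 33.8% of all. AGATAA, a form of the GATA site, and GTAAACA, a forkhead motif, were searched on both strands too. They were in 0 of the 6, against 9.99% and 3.17% of all promoters. Other forms of the GATA site were not counted, and the form TGATAA lies in the Dlx2 sequence above. These matches describe letters in a window of 250 bases and are not binding sites.

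Msx1 and Msx2 are homeobox factors of the follicle, tooth and limb, and Msx2 is known to maintain hair cycling and the hair shaft in mice. Msx2 had log2 signals of 2.44 and 4.04 on the CD109-/- DMBA arrays, against -1.44 and -1.30 on the CD109+/+ DMBA arrays, a log2 fold change of 4.61 with a standard error of 2.23 (limma adjusted p = 0.243). The untreated arrays gave -1.49 and 3.67 for those labelled CD109-/-, against -1.35 and 4.04 for those labelled CD109+/+, so that the labelled groups overlapped. The high untreated values were those of the Cd109-low arrays, a name used for the 4 on which Cd109 was not well above background, while the other 4 are called Cd109-high.

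Msx1 read -0.06 and 0.77 on the CD109-/- DMBA arrays, against -2.57 and -2.79 on the CD109+/+ DMBA arrays, a log2 fold change of 3.04 with a standard error of 1.61 (limma adjusted p = 0.274). Its untreated values were -2.57 and 1.39 with the label CD109-/-, against -2.50 and 1.21 with the label CD109+/+. Both untreated Cd109-low arrays lay above both CD109-/- DMBA arrays for Msx1, as they did for Foxe1 and for 18.5% of probes tested.

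The Dlx genes are homeobox factors that lie in neighbouring pairs, Dlx1 beside Dlx2 on chromosome 2 and Dlx3 beside Dlx4 on chromosome 11, with no other coding gene between the members of a pair in the RefSeq annotation of GRCm38.p6. Dlx2, known from forebrain and craniofacial development, had the highest fold change of the 10 members. Its log2 signals were 1.07 and 1.94 on the CD109-/- DMBA arrays, against -4.36 and -4.34 on the CD109+/+ DMBA arrays, a difference of 5.85 with a standard error of 2.75, or 57.7-fold (limma adjusted p = 0.234). In untreated skin Dlx2 read -4.99 and 1.75 under the label CD109-/-, against -4.59 and 1.91 under the label CD109+/+. Its 4 values were 1.07 to 1.94 when Cd109 was low, and its other 4 were -4.99 to -4.34.

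Dlx1, the partner of Dlx2, was well above background only on the Cd109-low arrays and was tested only because of these. It read -2.77 and -1.74 on the CD109-/- DMBA arrays, against -7.06 and -6.27 on the CD109+/+ DMBA arrays, and was at least 20.9-fold higher in CD109-/- skin after DMBA (limma adjusted p = 0.233), a bound set by the lowest signal well above background. With normexp correction and its offset the log2 fold change of Dlx1 was 1.51. The untreated values were -6.31 and -2.26 on the arrays labelled CD109-/-, against -7.86 and -2.23 on those labelled CD109+/+.

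Dlx3 and Dlx4 differed in the size of their change although they are neighbours. Dlx3, which is known to be required for the hair shaft and inner root sheath in mice, read 2.91 and 3.69 on the CD109-/- DMBA arrays, against 2.11 and 1.86 on the CD109+/+ DMBA arrays, a log2 fold change of 1.31 with a standard error of 0.50 (limma adjusted p = 0.176). It was well above background on all 8 arrays, and its untreated values were 2.37 and 3.30 with the label CD109-/-, against 2.33 and 3.41 with the label CD109+/+. Dlx4 read 0.09 and 1.51 on the CD109-/- DMBA arrays, against -4.12 and -4.34 on the CD109+/+ DMBA arrays, a log2 fold change of 5.03 with a standard error of 2.64 (limma adjusted p = 0.270). In untreated skin it read -5.41 and 1.12 with the label CD109-/-, against -4.78 and 1.30 with the label CD109+/+. Whether the 2 genes differed from each other was not tested.

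Hoxc13, the Hox factor whose loss in mice leaves a brittle coat, read 1.74 and 3.65 on the CD109-/- DMBA arrays, against -2.78 and -2.10 on the CD109+/+ DMBA arrays. The log2 fold change was 5.14 with a standard error of 1.99, or 35.2-fold (limma adjusted p = 0.179). Untreated skin gave -1.86 and 2.77 with the label CD109-/-, against -1.61 and 2.94 with the label CD109+/+.

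Foxn1, the forkhead factor that is mutated in nude mice and acts downstream of Hoxc13, had the widest gap between the CD109-/- DMBA replicates of the 10 members. It read -1.43 and 1.14 on the CD109-/- DMBA arrays, against -2.80 and -2.71 on the CD109+/+ DMBA arrays, a log2 fold change of 2.61 with a standard error of 1.52 (limma adjusted p = 0.306). Replicate 1 stood 1.32 above the CD109+/+ DMBA mean and replicate 2 stood 3.89 above it. The untreated values were -2.95 and 0.02 with the label CD109-/-, against -2.63 and 0.73 with the label CD109+/+.

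Foxe1, a forkhead factor known from thyroid development and, in the follicle, as a target of hedgehog signalling, read -2.19 and -1.47 on the CD109-/- DMBA arrays, against -5.15 and -6.19 on the CD109+/+ DMBA arrays. The second of the CD109+/+ DMBA values was not well above background. The log2 fold change was 3.84 with a standard error of 2.03 (limma adjusted p = 0.273), and 1.50 for Foxe1 with normexp correction and its offset. Its untreated values were -4.92 and -1.01 with the label CD109-/-, against -6.43 and -0.85 with the label CD109+/+, and the -6.43 was not well above background.

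Gata3 directs the inner root sheath in the follicle and is also a factor of T cells and innate lymphoid cells. Its log2 signals were 4.30 and 5.07 on the CD109-/- DMBA arrays, against 2.93 and 3.62 on the CD109+/+ DMBA arrays, a log2 fold change of 1.41 with a standard error of 0.43 (limma adjusted p = 0.132). Untreated skin gave 4.21 and 4.85 with the label CD109-/-, against 4.23 and 4.95 with the label CD109+/+. The lowest Cd109-low array exceeded the highest Cd109-high array by 0.07 on the log2 scale, the narrowest margin of the 10 members, against 5.41 for Dlx2.

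The spread between replicate arrays was not alike in the 2 genotypes after DMBA. In each of the 10 members CD109-/- DMBA replicate 1 read lower than replicate 2, by 0.73 for Foxe1 to 2.57 for Foxn1, with a median of 0.95. Over all probes tested the median of this difference was 0.04, and 53.7% of probes were higher on replicate 2. Between the CD109+/+ DMBA arrays the members differed by a median of 0.24 and at most 1.04, the value of Foxe1. CD109-/- DMBA replicate 1 had the lowest value among the 4 Cd109-low arrays in 10 of 10 members, and replicate 2 the highest in 7.

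**Figure D2:**
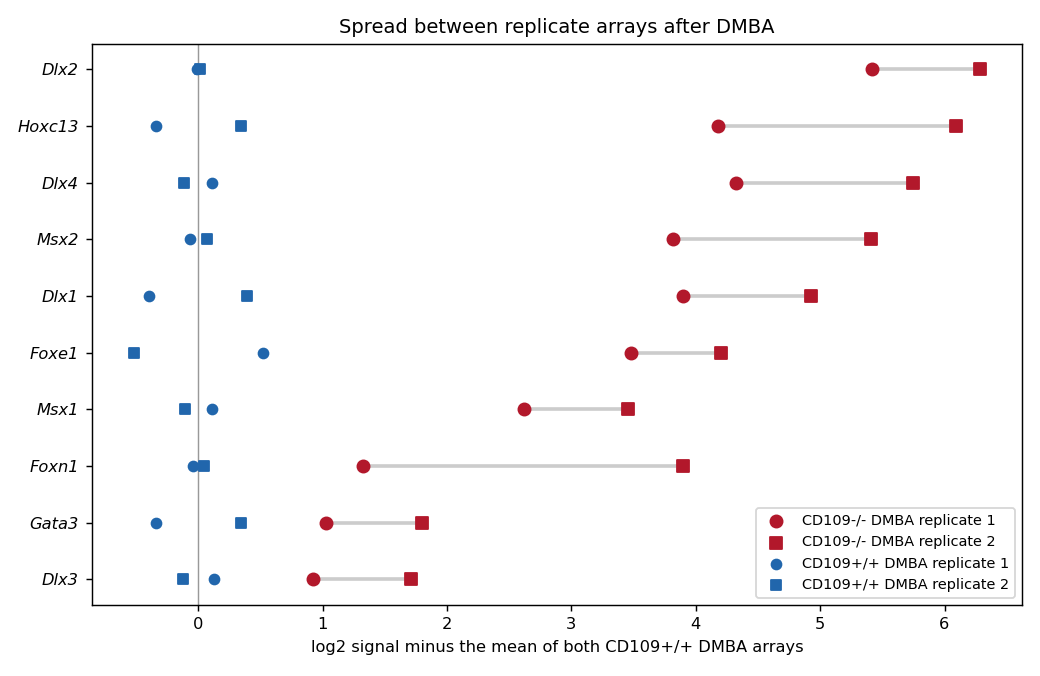
Log2 signal of each member on each DMBA array minus the mean of both CD109+/+ DMBA arrays, with red symbols for CD109-/- and blue for CD109+/+, circles for replicate 1 and squares for replicate 2. CD109-/- replicate 1 lies left of replicate 2 in all 10 members, and the gap is widest for Foxn1 at 2.57.

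In untreated skin as labelled, the members did not separate by genotype. Their log2 fold changes, CD109-/- over CD109+/+, lay between -0.51 for Foxn1 and 0.76 for Dlx1 with a median of -0.14, and the test gave 0 of 10 (limma adjusted p = 1.00 for each), with 0 at an unadjusted p under 0.05. Over all probes tested 2 passed, 0.00542%, and 798 had an unadjusted p under 0.05. Within the labelled groups the replicates lay far apart, by 6.74 for Dlx2 with the label CD109-/- and by 6.51 with the label CD109+/+.

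Without both arrays in doubt the values after DMBA stayed as they were and their standard errors became smaller, 0.34 for Dlx2 and 0.93 for Foxn1. The adjusted p ranged from 0.0754 to 0.157 (limma, 0 of 10 members passed), and all 10 had an unadjusted p under 0.05. In that fit 0 of all 38370 probes passed, 0.0%, while 12156 had an unadjusted p under 0.05. Untreated skin then had 1 array per genotype, which were assumed to vary like the other groups. The log2 fold changes of the members lay between 0.62 and 6.34 with a median of 4.69, beside -0.04 over all probes tested.

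**Figure D3:**
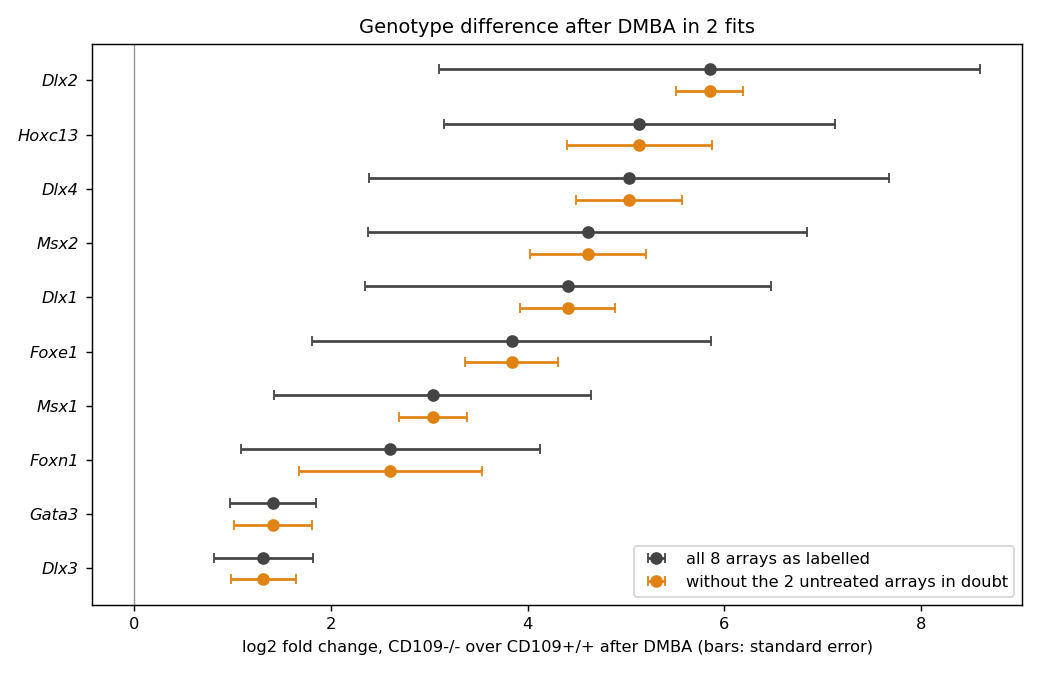
Log2 fold change of each member, CD109-/- over CD109+/+ after DMBA, with its standard error as bars, in black with all 8 arrays as labelled and in orange without the 2 untreated arrays in doubt. The fold changes are the same in both fits, and the standard error of Dlx2 is 2.75 in the first and 0.34 in the second, while Dlx1 was not well above background on either CD109+/+ DMBA array.

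An arrangement in which these 2 arrays exchange genotype labels was read from the Cd109 values themselves and is not independent evidence of what the arrays are. Under it 9 of 10 members rose in CD109-/- skin after DMBA (limma adjusted p between 0.00466 for Dlx2 and 0.0365 for Gata3), while Foxn1 had an adjusted p of 0.0645. For untreated skin 7 of 10 passed, all higher in CD109-/- skin, and Dlx3, Foxn1 and Gata3 had adjusted p-values of 0.0702, 0.0632 and 0.220. The share of all probes that passed as higher was 11.6% after DMBA and 4.98% in untreated skin. By Cd109 signal alone, with no test, all 10 members lay higher on each of the 4 arrays with a low signal than on any of the 4 with a high one, which 13.0% of probes tested also did. Dlx1 is part of the 9, the 7 and the 10. It was not well above background on any Cd109-high array, so its direction in these counts was set by the filter. Under the exchange Foxe1, well above background on 2 Cd109-high arrays, was also tested only because of Cd109-low arrays.

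DMBA itself gave no member a call. With both labels exchanged, DMBA over untreated CD109-/- skin gave log2 fold changes of -0.95 to -0.01, all 10 below 0. As labelled, the members' log2 fold changes for DMBA over untreated skin lay between 0.16 and 3.12 in CD109-/- mice and between -3.11 and -0.89 in CD109+/+ mice (limma adjusted p from 0.592 to 0.864 and from 0.358 to 0.808). Of all probes tested, 0.0% passed in CD109-/- mice and 0.184% in CD109+/+ mice. The lower of the untreated values was that of replicate 1 in each group, with either label. The difference between the 2 effects was 1.35 to 6.13, positive in 10 members, and 0 passed (limma adjusted p from 0.329 to 0.580, with 0.0% of all probes passing). Without both arrays in doubt the medians over the members were -0.21 for DMBA in CD109-/- mice and -0.07 in CD109+/+ mice, against 1.67 and -2.04 as labelled, and the median difference between the effects was -0.45, against 3.41 as labelled.

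Averaged over genotypes, a value that does not depend on which untreated array carries which genotype label, the DMBA fold changes of the members were small. They lay between -0.58 for Gata3 and 0.23 for Dlx4 on the log2 scale, 3 above and 7 below 0, with a median of -0.26 beside 0.04 over all probes tested. None passed (limma, 0 of 10, adjusted p from 0.540 to 0.994, and 0 with an unadjusted p under 0.05). Of all probes 0.0298% passed, and 4280 had an unadjusted p under 0.05. With both labels exchanged the averages stayed as they were, while their errors became smaller. Then 0 of 10 passed (limma adjusted p from 0.196 to 0.899), and 2 had an unadjusted p under 0.05, Msx1 and Gata3. Of all 37157 probes tested there 1.56% passed, and 7931 had an unadjusted p under 0.05. Without both arrays in doubt these averages lay between -0.61 and 0.60, 2 above and 8 below 0, with a median of -0.16, and 0 of 10 passed (limma adjusted p from 0.506 to 0.999, 0 with an unadjusted p under 0.05), as did 0.0% of all probes. Among the Cd109-high arrays, both DMBA arrays lay below both untreated ones in 3 members, Hoxc13, Dlx3 and Gata3, and above them in Dlx2 and Dlx4. Of all probes tested 30.5% were below and 30.8% above in the same way. Gata3 had the widest of these gaps downward, with a mean 0.95 lower after DMBA.

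Other transcription factors of the follicle are given beside the members. Of 20 factors listed, 19 were tested with the labels as deposited, and 0 passed after DMBA, with 16 fold changes above 0 and a median of 1.41. Lef1, the nuclear partner of Wnt signalling in the matrix, read 2.83 and 4.42 on the CD109-/- DMBA arrays, against -1.33 and -1.12 on the CD109+/+ DMBA arrays (limma adjusted p = 0.159 as labelled). Gli1, a target and effector of hedgehog signalling, read 3.46 and 3.23 on the CD109-/- DMBA arrays, against 0.37 and 0.29 on the CD109+/+ DMBA arrays (limma adjusted p = 0.218). Lhx2, a factor of follicle stem cells, and Tbx1 had log2 fold changes of 2.71 and 2.12. With both labels exchanged 14 of 20 passed as higher and 0 as lower, beside 11.6% and 8.55% of all probes tested.

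Paralogs of the members, genes of the same families outside the list of 10, numbered 14. Of these, 10 were tested with the labels as deposited, 0 passed, and the median log2 fold change after DMBA was 0.14. With both labels exchanged 11 were tested and 2 passed as higher, beside 11.6% of all probes tested. These were Msx3, with a log2 fold change of 1.04, and Foxn4, which was at least 3.61-fold higher in CD109-/- skin. Foxn4 was not tested as labelled and was not well above background on any Cd109-high array. It was tested only because of Cd109-low arrays, so the direction of its pass was set by the filter.

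The genes whose products build the hair and its sheath had median log2 fold changes after DMBA of 6.92 for the shaft keratins and 7.96 for the inner root sheath, against 4.12 for the members. The 11 hair shaft keratins measured averaged 1.29 and 5.88 on the CD109-/- DMBA arrays, against -4.12 and -4.03 on the CD109+/+ DMBA arrays, and here too replicate 1 was the lower of the CD109-/- DMBA arrays. The 9 genes of the inner root sheath averaged 3.26 and 5.49, against -3.72 and -3.92 on the CD109+/+ DMBA arrays. Krt35, a hair keratin of the matrix and cortex, had a log2 fold change of 11.02, and Krt71, a keratin of the inner root sheath, one of 12.75. All 11 and all 9 fold changes were above 0, and 0 passed as labelled (limma, smallest adjusted p = 0.163). With both labels exchanged 8 of 11 and 7 of 9 passed as higher, beside 11.6% of all probes tested. Among those that passed, Krt33b, Krt34 and Krt25 were not well above background on any Cd109-high array. They were tested only because of Cd109-low arrays, so the direction of their pass was set by the filter.

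Signals of the matrix were split. Shh, the hedgehog ligand, was not well above background on either CD109+/+ DMBA array and was at least 35.1-fold higher in CD109-/- skin after DMBA (limma adjusted p = 0.207). Its receptor Ptch1 had a log2 fold change of 3.19 and Wnt10b, a Wnt ligand, one of 3.70, while 0 of the 9 tested passed as labelled and the median was 1.31. With both labels exchanged 10 were tested, of which 6 passed as higher and 2 as lower, beside 11.6% and 8.55% of all probes. Shh, among the 6, was not well above background on any Cd109-high array, so the direction of its pass was set by the filter. The 2 lower were Fgf7 and Fgf10, with log2 fold changes after DMBA of -1.43 and -0.94. The bulge and resting follicle list had a median of 0.25 over 8 genes, and interfollicular epidermis 0.07 over 10. Both lists held changes in both directions, Fgf5 at 4.34 and Fgf18 at -1.58, and Krt2 at 0.72 and Krt14 at -1.42. With both labels exchanged 1 gene in each passed as higher and 1 as lower, beside 11.6% and 8.55% of all probes tested. Proliferation had a median of 0.38 over 8 and the sebaceous gland -0.15 over 5. The proliferation genes averaged 1.68 to 1.80 over the Cd109-low arrays, against -0.06 to 1.40 over the Cd109-high arrays. Of the 8, 6 lay higher on each Cd109-low array than on any Cd109-high one, as did 13.0% of probes tested. With both labels exchanged 2 of these 8 passed as higher after DMBA and 8 of 8 in untreated skin, beside 11.6% and 4.98% of all probes tested. Without both arrays in doubt, 0 genes passed after DMBA in any of the 14 lists.

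**Figure D4:**
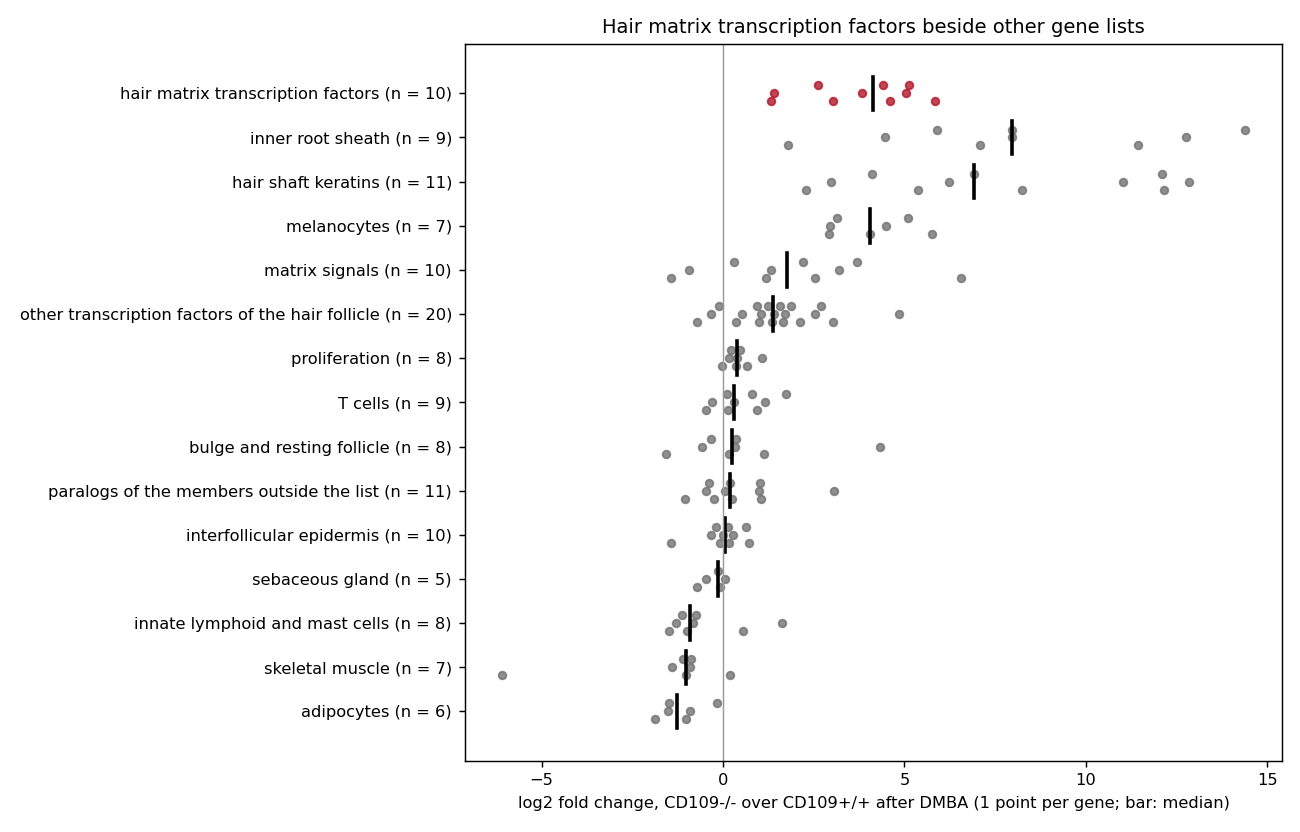
Log2 fold change, CD109-/- over CD109+/+ after DMBA, of each tested gene (1 point) in the 10 hair matrix transcription factors, in red, and in 14 other lists, in grey, with fitted values also for probes not well above background in 1 genotype and a black bar at each median. The median of the members, 4.12, lies below those of the inner root sheath and the hair shaft keratins and above that of the other transcription factors of the follicle.

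Some markers of other cell types separated the same arrays. The 7 melanocyte genes, all above 0 after DMBA with a median log2 fold change of 4.05, had list means of 1.76 to 2.79 over the Cd109-low arrays, against -2.07 to -1.65 over the Cd109-high arrays. The 6 adipocyte genes, all below 0 with a median of -1.26, averaged 2.12 to 3.09 over the Cd109-low arrays, against 3.54 to 4.36 over the Cd109-high arrays. The 7 skeletal muscle genes had a median of -1.03 and averaged 4.18 to 5.77 over the Cd109-low arrays, against 6.18 to 7.25 over the Cd109-high arrays. Every gene of these 3 lists was well above background on at least 1 array, and the part of these cell types in the members' values was not tested.

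Markers of T cells, innate lymphoid cells and mast cells were read beside Gata3. The 10 T cell genes averaged -0.59 to 0.49 over the Cd109-low arrays, against -0.67 to 0.37 over the Cd109-high arrays, ranges that overlap. Of the 10 genes 0 separated the 4 arrays from the other 4, against 13.0% of probes tested above and 14.1% below. After DMBA 7 of the 9 T cell genes tested had a fold change above 0, with a median log2 fold change of 0.29. Zap70, a kinase of the T cell receptor, had one of 1.72 (limma adjusted p = 0.113 as labelled and 0.0445 with both labels exchanged). The 8 genes of innate lymphoid and mast cells averaged -0.27 to 0.30 over the Cd109-low arrays, against 0.44 to 0.58 over the Cd109-high arrays, with a median log2 fold change after DMBA of -0.90. Of these 8 genes 5 lay lower on each Cd109-low array than on any Cd109-high one, as did 14.1% of probes tested. Among the 5, Cma1 and Cpa3 had log2 fold changes after DMBA of -1.48 and -1.30 (limma adjusted p = 0.131 and 0.150). Kit, which melanocytes express as well as mast cells, was the gene of this list that lay higher on all Cd109-low arrays. Its log2 fold change after DMBA was 1.63 (limma adjusted p = 0.119).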

How the data were processed

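Total RNA of whole skin was labelled with Cy3 and hybridized to 1-colour Agilent mouse arrays. The authors used Agilent Feature Extraction 11.5.1.1 to read them, and the deposited values are background-subtracted intensity per spot on a linear scale, with no normalization between arrays. A deposited value table holds the same intensity times 1 constant per array, set in a way not given in the sources used here.

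Control spots and spots flagged as outliers were left out and spots of a probe were averaged, which kept 55458 of 55681 probes from 59305 spots. Values are log2 intensity minus the log2 of each array's 75th percentile over probes. Accessions were named through the RefSeq table of GRCm38.p6, which matched 28020 of 29796 RefSeq probes (94.0%). In the 14 gene lists 4 genes had no match by name. Testing was limited to probes well above background in both replicates of 1 group or more.

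The comparisons were fitted with limma 3.58.1 in R 4.3.3 (1 mean per group, moderated variance over 8 arrays), and a call needed a Benjamini-Hochberg adjusted p under 0.05 over all probes tested. The script was tested on simulated data. Cd109, all 10 members and, from each list, up to 4 genes with the smallest p were eligible to be named. Fgf7 and Fgf10 were named besides, as the lower genes of their list. Where a group had no array well above background, the fold is a lower bound, taken against the lowest signal that was well above it or the probe's own if higher. The members and lists were chosen with earlier results of these data known. Alternatives were quantile normalization, median centring, normexp with an offset of 50 on medians, the deposited value table, other filters on dim probes, a fit limited to the compared arrays, the replicate block, the t-test or ANOVA of the methods, the mean of a gene's probes, both arrays in doubt left out or exchanged, and each array left out. The number of arrays limits the precision.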

Additional observations from a re-analysis of the deposited data

How the results depend on the processing

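With the labels as deposited, 0 of 10 members passed in each of the 6 comparisons, and this count was also 0 under quantile normalization, median centring, normexp, the deposited value table, other filters on dim probes, a fit limited to the compared arrays, the t-test or ANOVA of the methods after adjustment, the mean of a gene's probes and without both arrays in doubt. The filter on all arrays left out Dlx1 and Foxe1, and a fit limited to the compared arrays cannot be made for the difference between DMBA effects or their average. With the replicate block 1 member passed after DMBA, Gata3 (limma adjusted p = 0.0462), as did 4.58% of all probes tested. The replicate numbers name no shared mouse, and the correlation of same-numbered arrays' deviations ran from -0.08 to 0.73 over pairs of groups, so they were not taken as pairs. With both arrays in doubt exchanged, 9 members passed after DMBA and 7 in untreated skin, as did 20.1% and 8.85% of all probes in either direction. Leaving out 1 array gave 0 to 10 members after DMBA and 0 to 9 in untreated skin; the nonzero counts all came with both labels exchanged, a setting chosen after seeing the data. There, leaving out CD109-/- DMBA replicate 1 gave 10 members after DMBA (34.5% of all probes passed), leaving out replicate 2 of that group gave 5 (3.37%), and leaving out CD109+/+ DMBA replicate 1 or 2 gave 1 each (0.330% and 0.526%). In untreated skin the counts were 4 without an untreated replicate 2 of either label and 6 to 9 otherwise, and between 1.50% and 17.7% of all probes passed. With normexp and its offset of 50, which lowers the folds of dim probes by its construction, the members' log2 fold changes after DMBA lay between 1.20 and 4.33. They fell to 1.51 for Dlx1, 1.50 for Foxe1, 3.37 for Dlx4 and 4.29 for Dlx2, against 4.41, 3.84, 5.03 and 5.85 in the fit as labelled. No member's fold change after DMBA turned its direction under any of the alternatives run. The cause of these differences was not tested. Dlx1 on all arrays with a high Cd109 signal and Foxe1 on 2 of them were not well above background, which limits their fold changes. The direction in which Dlx1 passed with both labels exchanged was set by the filter.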
